A study of Mus musculus with 8 samples.

Results

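Interleukin receptor genes were examined for PU.1 and CEBPA binding in X18.1.1, a radiation-induced murine acute myeloid leukaemia (AML) cell line. The genes were chosen by name, as the protein-coding genes of the GENCODE M21 annotation of mm10 whose symbol begins with Il, a number and r. This gave 41 of 21951 protein-coding genes. Most encode receptor subunits, but the rule also takes *Il1rn*, which encodes a ligand that blocks the IL-1 receptor, and *Il1rapl1* and *Il1rapl2*, which encode synaptic proteins of neurons. For each gene, a peak was counted when its centre lay in the gene body or within 20 kb of it.

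The cells of both conditions carry a deleted *Pu.1* allele and an allele with mutations in the DNA-binding and PEST domains. PU.1− cells were transduced with the empty vector (EV). PU.1+ cells were transduced with PuER, in which wild-type PU.1 is joined to the oestrogen receptor domain and is activated by 4-hydroxytamoxifen (OHT). Each condition was a clonal line, and both lines received 100 nM OHT for 2 h, so the construct and the clone cannot be told apart. There was 1 ChIP-Seq library for each antibody and line. The PU.1 antibody detects endogenous mutant PU.1 as well as PuER, so a peak in PU.1+ cells may contain either protein. No replicates were available, and no test between the lines was made. Shares are given with exact 95% confidence intervals (Clopper-Pearson), which describe counting error alone. The peak lists used here held 5288 (PU.1−) and 15683 (PU.1+) PU.1 peaks and 26119 and 20583 CEBPA peaks, each 400 bp wide and without a height or score. The read depth was not examined here, and a peak that is not listed may lie below the calling threshold.

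Interleukin receptors are built from subunits that are often shared. In the common gamma chain group, receptors for IL-2, IL-4, IL-7, IL-9, IL-15 and IL-21 use *Il2rg*. IL-3 and IL-5 receptors pair a specific alpha chain with a common beta chain, the IL-6 and IL-11 receptors use gp130, and most receptors of these groups signal through Janus kinases and STAT factors. Receptors of the IL-1 family signal through a cytoplasmic domain like that of Toll-like receptors, and IL-17 receptors through a related domain. PU.1 is an ETS factor that recognises sites with a GGAA core, and CEBPA is a basic leucine zipper factor. Both are regulators of myeloid genes.

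Near these genes, PU.1+ had 35 PU.1 peaks that the PU.1− list lacked, and 6 of them held a PU.1-type site (GAGGAAGT, both strands searched) in the central 80 bp. That share (17.1%, 6.56–33.6%) was close to the 15.5% of all PU.1 peaks listed only in PU.1+. All 6 windows are given here because they join a new peak to the sequence that PU.1 prefers. The site is in capitals. Each window is written 5′ to 3′ on the strand that reads GAGGAAGT, with mm10 coordinates and sequence from the RefSeq copy of GRCm38.
*Il4ra*, 5′ of the gene, chr7:125542781-125542860, forward strand: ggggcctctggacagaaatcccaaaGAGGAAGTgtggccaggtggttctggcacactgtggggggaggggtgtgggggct
*Il21r*, 5′ of the gene, chr7:125599728-125599807, forward strand: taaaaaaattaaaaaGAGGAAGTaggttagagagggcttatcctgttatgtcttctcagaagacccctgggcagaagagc
*Il20ra*, intron, chr10:19738573-19738652, reverse strand: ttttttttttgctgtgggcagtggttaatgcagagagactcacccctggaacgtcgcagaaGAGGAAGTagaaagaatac
*Il22ra2*, 5′ of the gene, chr10:19614525-19614604, reverse strand: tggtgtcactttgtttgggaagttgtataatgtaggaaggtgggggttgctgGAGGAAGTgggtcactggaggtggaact
*Il17rb*, 5′ of the gene, chr14:30024658-30024737, reverse strand: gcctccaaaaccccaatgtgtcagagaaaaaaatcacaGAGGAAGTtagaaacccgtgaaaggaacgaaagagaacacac
*Il17rc*, inside the gene, chr6:113476654-113476733, reverse strand: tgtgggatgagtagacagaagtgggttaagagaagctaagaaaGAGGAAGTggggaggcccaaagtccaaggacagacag

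PU.1 peaks called in both conditions held the same site in 4 of 15 cases (26.7%, 7.79–55.1%) when windows were centred on PU.1+ peaks. Over all shared PU.1 peaks the share was 13.7%. With windows centred on PU.1− peaks, 2 of 15 held it (*Il6ra* and *Il21r*, 13.3%, 1.66–40.5%), against 11.0% of all. Both intervals include the value of all shared peaks. The windows shown are those centred on the PU.1+ peak, for comparison with the new peaks, and the site is again in capitals.
*Il4ra*, intron, chr7:125555669-125555748, forward strand: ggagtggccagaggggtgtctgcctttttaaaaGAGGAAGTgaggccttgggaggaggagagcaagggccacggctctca
*Il21r*, intron, chr7:125630446-125630525, forward strand: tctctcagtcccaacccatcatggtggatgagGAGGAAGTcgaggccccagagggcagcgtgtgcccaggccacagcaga
*Il6ra*, intron, chr3:89911389-89911468, reverse strand: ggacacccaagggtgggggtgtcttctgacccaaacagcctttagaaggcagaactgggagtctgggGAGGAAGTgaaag
*Il18rap*, promoter, chr1:40515256-40515335, forward strand: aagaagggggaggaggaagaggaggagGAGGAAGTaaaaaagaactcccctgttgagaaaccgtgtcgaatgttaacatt

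PU.1 binding was listed at more of these genes in PU.1+ than in PU.1−. In PU.1−, 11 of 41 genes (26.8%) had a PU.1 peak, against 23.7% of all protein-coding genes. In PU.1+, 26 genes (63.4%) had one, against 41.4% of all genes. Each of the 11 genes with a peak in PU.1− also had one in PU.1+. A PU.1 peak that overlapped no PU.1− peak, here called new, was found at 24 genes (58.5%, against 36.7% of all genes). Peaks of both lines coincided at 10 (24.4% against 13.4%), and 4 genes (9.76% against 13.7%) had a peak that PU.1+ lacked. At 15 genes (36.6% against 22.6%) a new peak was present and PU.1− had none at all. A further 15 genes (36.6% against 53.7%) had no PU.1 peak in either line.

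These genes were longer than most, with a median length of 30.1 kb against 17.4 kb, and a longer gene collects more peaks. Among genes of 10 to 100 kb, a range chosen after the values were seen, 21 of 35 interleukin receptor genes (60.0%) had a new PU.1 peak, against 41.2% of all genes in that range. The longest members were *Il1rapl1* (1374.8 kb) and *Il1rapl2* (1276.3 kb). Over the combined loci there were 6.28 new PU.1 peaks per Mb, close to 6.83 per Mb over the loci of all protein-coding genes. Without these 2 genes the density was 12.0 per Mb, but long genes were not removed from the 6.83 per Mb, so these 2 values are not comparable. The median number of new PU.1 peaks per gene was 1, against 0 for all genes, and the highest number was 3 (*Il2ra*, *Il4ra* and *Il21r*). These 3 genes are 7.32% of the 41, close to the 6.80% of all genes with 3 or more new PU.1 peaks.

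**Figure D1:**
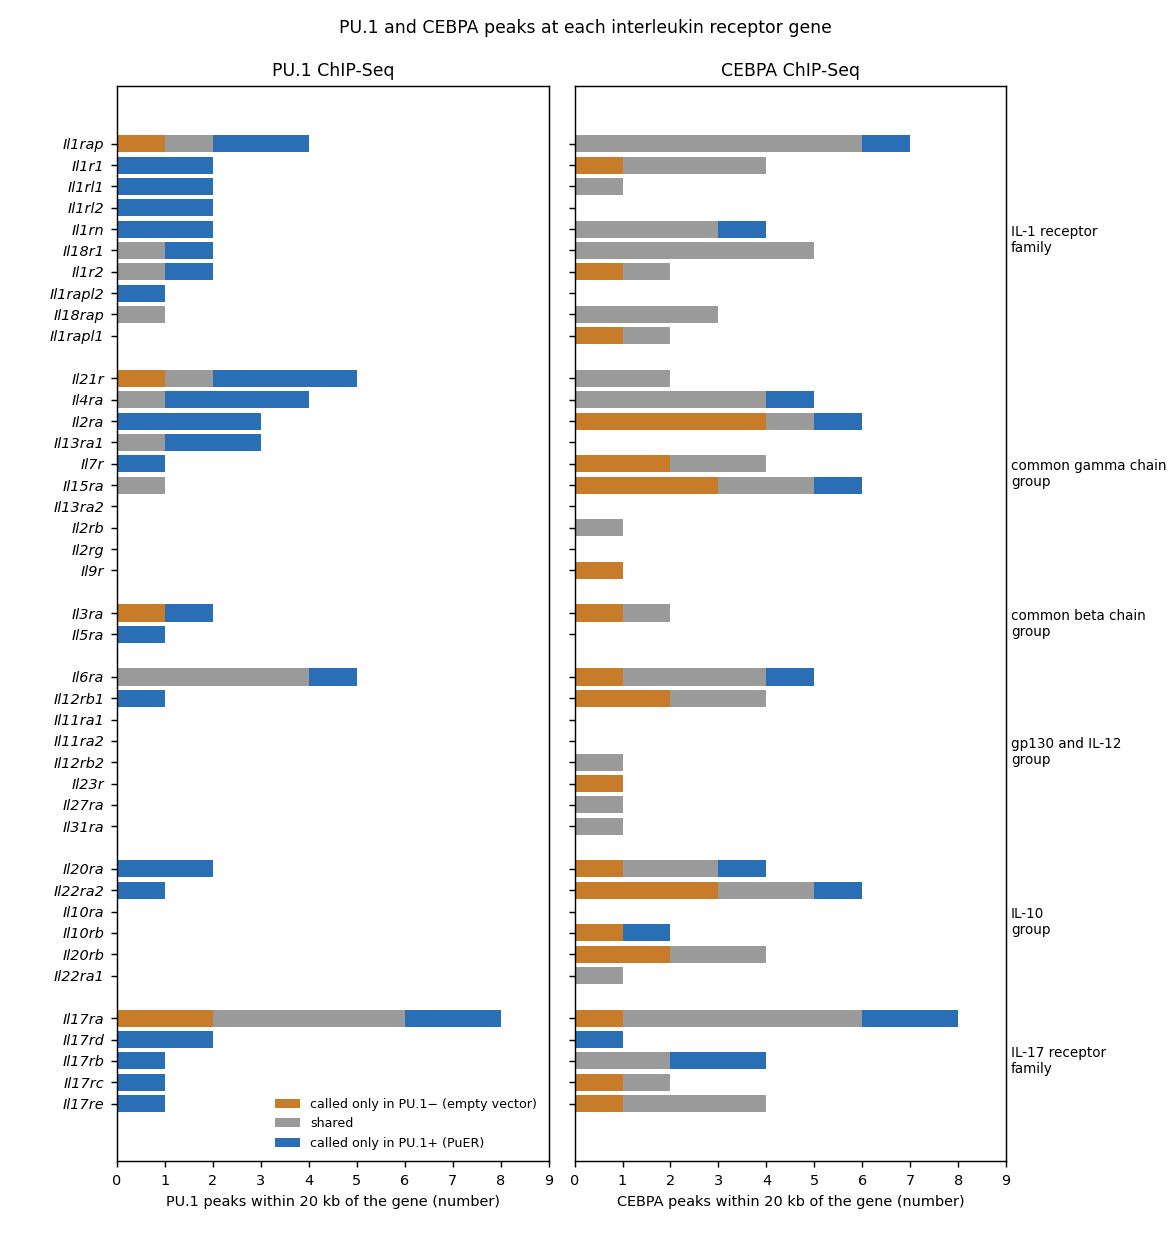
Number of PU.1 (left) and CEBPA (right) peaks within 20 kb of each of the 41 genes, by receptor group, with bars divided into peaks called only in PU.1−, shared peaks and peaks called only in PU.1+. *Il17ra* carried the most PU.1 peaks, with 2, 4 and 2 in these classes, and 15 genes carried none.

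Counted once each, PU.1 peaks at these genes numbered 20 in the empty vector line and 50 in the PuER line. New peaks made up 35 of these 50 (70.0%, 55.4–82.1%), a share whose interval includes the 80.6% found at all genes. Of the 20, 5 (25.0%, 8.66–49.1%) were missing from the PU.1+ list, against 45.6% at all genes. A median of 9.30 kb separated new PU.1 peaks from the nearest annotated start of a member, and 12 of 35 lay within 5 kb. For 32 of the 35 (91.4%) the nearest start of any protein-coding gene belonged to a member. The exceptions, named after their values were seen, were the peaks near *Arrdc2* (counted for *Il12rb1*), *Chdh* (counted for *Il17rb*) and *Tex13a* (counted for *Il1rapl2*).

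By place, scored against all protein-coding genes, 6 of the new PU.1 peaks (17.1%, 6.56–33.6%) lay within 1000 bp of an annotated start, 15 (42.9%, 26.3–60.6%) in introns and 14 (40%, 23.9–57.9%) outside genes, with none in an exon. For new PU.1 peaks at all genes the corresponding shares were 14.0%, 55.4% and 26.6%, each inside the interval. Of the 6 promoter peaks, 1 belonged to *Arrdc2* and 5 to interleukin receptor genes. Of these, those of *Il6ra* and *Il7r* lay near the 5′ end of the gene, 62 bp and 124 bp upstream of an annotated start. Those of *Il1rn*, *Il17rc* and *Il3ra* lay at internal starts, 8.32, 5.27 and 3.19 kb from the 5′ end. Shared PU.1 peaks were in introns in 11 of 15 cases (73.3%, 44.9–92.2%), and the interval includes the 49.6% of shared PU.1 peaks at all genes.

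In the IL-1 receptor family, 8 of 10 genes had a new PU.1 peak, against 36.7% of all genes, and some of them were counted through the same peak. A cluster of 6 genes of the family, from *Il1r2* to *Il18rap*, spans 477.6 kb of chromosome 1 (40074079 to 40551705) and carried 6 new PU.1 peaks, 2 shared peaks and none called only in PU.1−. *Il1r2*, a decoy receptor for IL-1, had a new intronic peak at 40080978–40081377 and a shared intronic peak at 40091567–40091966. *Il1r1*, the signalling IL-1 receptor, had none in PU.1− and 2 in PU.1+. The peak at 40240450–40240849, in an intron 15.6 kb from an annotated start, overlapped a CEBPA peak that was called only in PU.1−. The other, at 40321819–40322218, lies between *Il1r1* and *Il1rl2* and is 2.59 kb upstream of *Il1rl2*, which encodes the IL-36 receptor. *Il1rl2* had a further new peak in an intron (40355897–40356296), and no CEBPA peak was listed at this gene in either line.

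*Il1rl1*, the receptor for IL-33, had new PU.1 peaks 19.5 kb upstream (40409846–40410245) and 3′ of the gene (40475658–40476057), the latter in an intron of the neighbouring *Il18r1*. At *Il18rap*, the accessory chain of the IL-18 receptor, the PU.1 peak at the promoter was shared, with its centre 67 bp upstream of the start in PU.1+. CEBPA was listed there in both lines. Of the 6 new peaks of this cluster, 1, the peak at *Il1r2*, held a GGAAGT site in the central 80 bp.

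*Il1rap* encodes the accessory chain used by the receptors for IL-1, IL-33 and IL-36. It lies at 26581704 to 26730117 of chromosome 16 and had peaks of all 3 PU.1 classes. New PU.1 peaks lay in introns at 26626056–26626455, over a CEBPA peak shared by both lines, and at 26691469–26691868. A shared PU.1 peak at 26689823–26690222 also coincided with shared CEBPA, and a peak called only in PU.1− at 26692614–26693013 was centred in an exon. These last 3 peaks span 3.19 kb. *Il1rn* had no PU.1 peak in PU.1− and 2 in PU.1+, at 24317885–24318284 and 24344974–24345373 of chromosome 2, and both overlapped CEBPA peaks present in both lines. *Il1rapl2* had a single new peak, 734.6 kb from the nearest annotated start of the gene, and *Il1rapl1* had no PU.1 peak.

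In the common gamma chain group, 5 of 10 genes had a new PU.1 peak (36.7% of all genes), 11 peaks in all. The group as counted includes the IL-13 receptor genes *Il13ra1* and *Il13ra2*, although IL-13 receptors are not listed above as using *Il2rg*. *Il4ra*, the signalling chain for IL-4 and IL-13, and *Il21r*, the IL-21 receptor, are neighbours on chromosome 7 (125552120 to 125633570) and together carried 5 new, 2 shared and 1 PU.1−-only PU.1 peaks. At *Il4ra*, new peaks lay 9.30 kb upstream (125542621–125543020, first window above) and 3′ of the gene at 125582745–125583144 and 125596426–125596825. The last of these also lies 6.80 kb upstream of *Il21r* and overlapped shared CEBPA. The shared intronic peak at 125555509–125555908, whose window with a PU.1-type site is given above, overlapped a CEBPA peak at 125555577–125555976 that was called only in PU.1+. *Il21r* had further new peaks 3.66 kb upstream (125599568–125599967) and in an intron (125613652–125614051), the latter over shared CEBPA. Its PU.1−-only peak lay 3′ of the gene at 125638883–125639282, where the nearest start is that of *Gtf3c1*, 10.9 kb away.

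*Il2ra*, which encodes the IL-2 receptor alpha chain (CD25), had no PU.1 peak in PU.1− and 3 in PU.1+, none of which overlapped a CEBPA peak. They lay 5.61 kb upstream of the first start and in introns, and 2 of them had a GGAAGT site in the central 80 bp. These windows are shown because PU.1 alone was listed there, with the site in capitals.
*Il2ra*, 5′ of the gene, chr2:11637160-11637239, forward strand: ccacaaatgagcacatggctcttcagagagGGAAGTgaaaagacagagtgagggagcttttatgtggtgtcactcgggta
*Il2ra*, intron, chr2:11662205-11662284, reverse strand: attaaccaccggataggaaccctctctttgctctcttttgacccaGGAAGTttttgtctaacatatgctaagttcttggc

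The CEBPA peaks at *Il2ra* were listed mainly in PU.1−, with 4 called only there, 1 shared and 1 called only in PU.1+. Of the 4, 1 lay in an intron and 2 in exons of *Il2ra*, and 1 lay at the promoter of *Il15ra* (11705581–11705980), whose product presents IL-15. The last 3 were counted for both genes. *Il15ra* had no new PU.1 peak, and its only PU.1 peak, shared and 3′ of the gene (11739509–11739908), was nearest to the start of *Fbh1*.

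*Il13ra1* encodes the chain that joins *Il4ra* to form a receptor for IL-13 and IL-4. The study names it in its target list, as it does *Il6ra*, and that list rests partly on PU.1 binding in these libraries, so the peaks at both genes are not independent evidence. At *Il13ra1*, on chromosome X, new PU.1 peaks lay 10.6 kb (36101335–36101734) and 8.31 kb (36103596–36103995) upstream, and neither had a GGAAGT site in its central 80 bp. The intronic peak at 36129500–36129899 was shared, and its centre differed by 1 bp between the lines. No CEBPA peak was listed at this gene in either line. Its window holds 2 GGAAGT sites, in capitals, each preceded by CA as in the ETS1-type site CAGGAAGT.
*Il13ra1*, intron, chrX:36129660-36129739, forward strand: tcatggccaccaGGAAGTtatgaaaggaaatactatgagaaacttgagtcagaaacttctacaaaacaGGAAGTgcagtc

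*Il7r*, the IL-7 receptor alpha chain, had its only PU.1 peak at the promoter (chromosome 15, 9529760–9530159), called only in PU.1+. The shared chain *Il2rg* and the decoy *Il13ra2* had no peak of either antibody. *Il2rb* and *Il9r* had a single CEBPA peak each, shared at *Il2rb* and called only in PU.1− at *Il9r*, and no PU.1 peak.

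The ligand-specific chains of the common beta chain group both had a new PU.1 peak, as 36.7% of all genes did. At *Il3ra*, the IL-3 receptor alpha chain, the PU.1 peaks of the lines differed. In PU.1−, the peak lay at the first start (chromosome 14, 14346065–14346464, centre 11 bp from it) over shared CEBPA. In PU.1+, the peak lay inside the gene at 14349270–14349669, without CEBPA. The central 80 bp of this new peak held 3 GGAAGT sites, the most in that window of any PU.1 peak at these genes. Over the whole peak it held 6, whereas the new intronic peak at *Il20ra* held 9, all of the PU.1 type. The *Il3ra* window is shown for its central sites.
*Il3ra*, inside the gene, chr14:14349430-14349509, reverse strand: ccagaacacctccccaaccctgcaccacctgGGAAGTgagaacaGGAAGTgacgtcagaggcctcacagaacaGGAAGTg

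At *Il5ra*, the IL-5 receptor alpha chain, the new PU.1 peak lay 1.51 kb upstream (chromosome 6, 106750348–106750747), and CEBPA was not listed there.

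In the gp130 and IL-12 group, 2 of 8 genes had a new PU.1 peak (36.7% of all genes) and 6 had no PU.1 peak in either line (53.7% of all genes). *Il6ra*, the IL-6 binding chain, lies on the reverse strand of chromosome 3 (89864059 to 89913196) and was bound in both lines. It carried 4 shared PU.1 peaks, 3 of them in introns, with centres 23 to 71 bp apart between the lines. The only new PU.1 peak lay at the promoter (89913059–89913458), over CEBPA shared by both lines. At the shared intronic PU.1 peak of 89911229–89911628, a CEBPA peak (89911210–89911609) was called only in PU.1+, and the PU.1 window with its PU.1-type site is given above. The new peak counted for *Il12rb1*, which encodes the subunit common to the IL-12 and IL-23 receptors, lay 0.378 kb from the start of *Arrdc2* and 26.9 kb from that of *Il12rb1*. *Il12rb2*, *Il23r*, *Il27ra* and *Il31ra* had 1 CEBPA peak each and no PU.1 peak. *Il11ra1* and *Il11ra2* had none of either antibody. These are near-identical copies, so reads there may not have been placed uniquely and their lack of peaks is uncertain.

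In the IL-10 group, 2 of 6 genes had a new PU.1 peak, close to the 36.7% of all genes, and none had a PU.1 peak in PU.1−, against 23.7% of all genes. *Il20ra*, a subunit for IL-20 family ligands, had a new intronic peak (chromosome 10, 19738413–19738812) with a PU.1-type site and without CEBPA, and a peak 3′ of the gene (19765454–19765853) over shared CEBPA. *Il22ra2*, which encodes a soluble IL-22 binding protein, had a new peak 7.43 kb upstream (19614365–19614764). *Il10ra*, the ligand-binding chain of the IL-10 receptor, had no peak of either antibody. *Il10rb*, *Il20rb* and *Il22ra1* had CEBPA peaks only. Of those at *Il10rb*, the peak called only in PU.1+ was 0.545 kb from the start of *Ifnar2*.

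All 5 genes of the IL-17 receptor family had a new PU.1 peak (36.7% of all genes), with 6 peaks in all, of which 1 was counted for both *Il17rc* and *Il17re* and 1 was nearest to *Chdh*. *Il17ra*, the subunit shared by receptors for IL-17 cytokines, lies at 120463247 to 120487559 of chromosome 6 and had the most PU.1 peaks of the 41 genes, 6 in PU.1− and 6 in PU.1+, with 4 shared. All 4 shared peaks lay inside the gene, 3.49, 7.65, 10.4 and 16.2 kb from the 5′ end in PU.1+, and 3 of them coincided with shared CEBPA. The new peaks lay 10.7 kb upstream (120452364–120452763) and in an intron (120471882–120472281). Those called only in PU.1− lay 8.31 kb upstream (120454735–120455134), over shared CEBPA, and in an exon (120485907–120486306).

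*Il17rd*, a receptor-like regulator, was listed with no peak of either antibody in PU.1−. In PU.1+ it had PU.1 peaks in introns at 27042312–27042711 and 27045060–27045459 of chromosome 14 and a CEBPA peak at 27042269–27042668. *Il17rc*, a receptor subunit for IL-17A and IL-17F, and *Il17re*, the receptor for IL-17C, are neighbours and share the new peak at 113476494–113476893, which lies inside *Il17rc*. The new peak counted for *Il17rb*, the receptor for IL-25, was 2.06 kb from the start of *Chdh* and 15.8 kb from that of *Il17rb*.

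**Figure D2:**
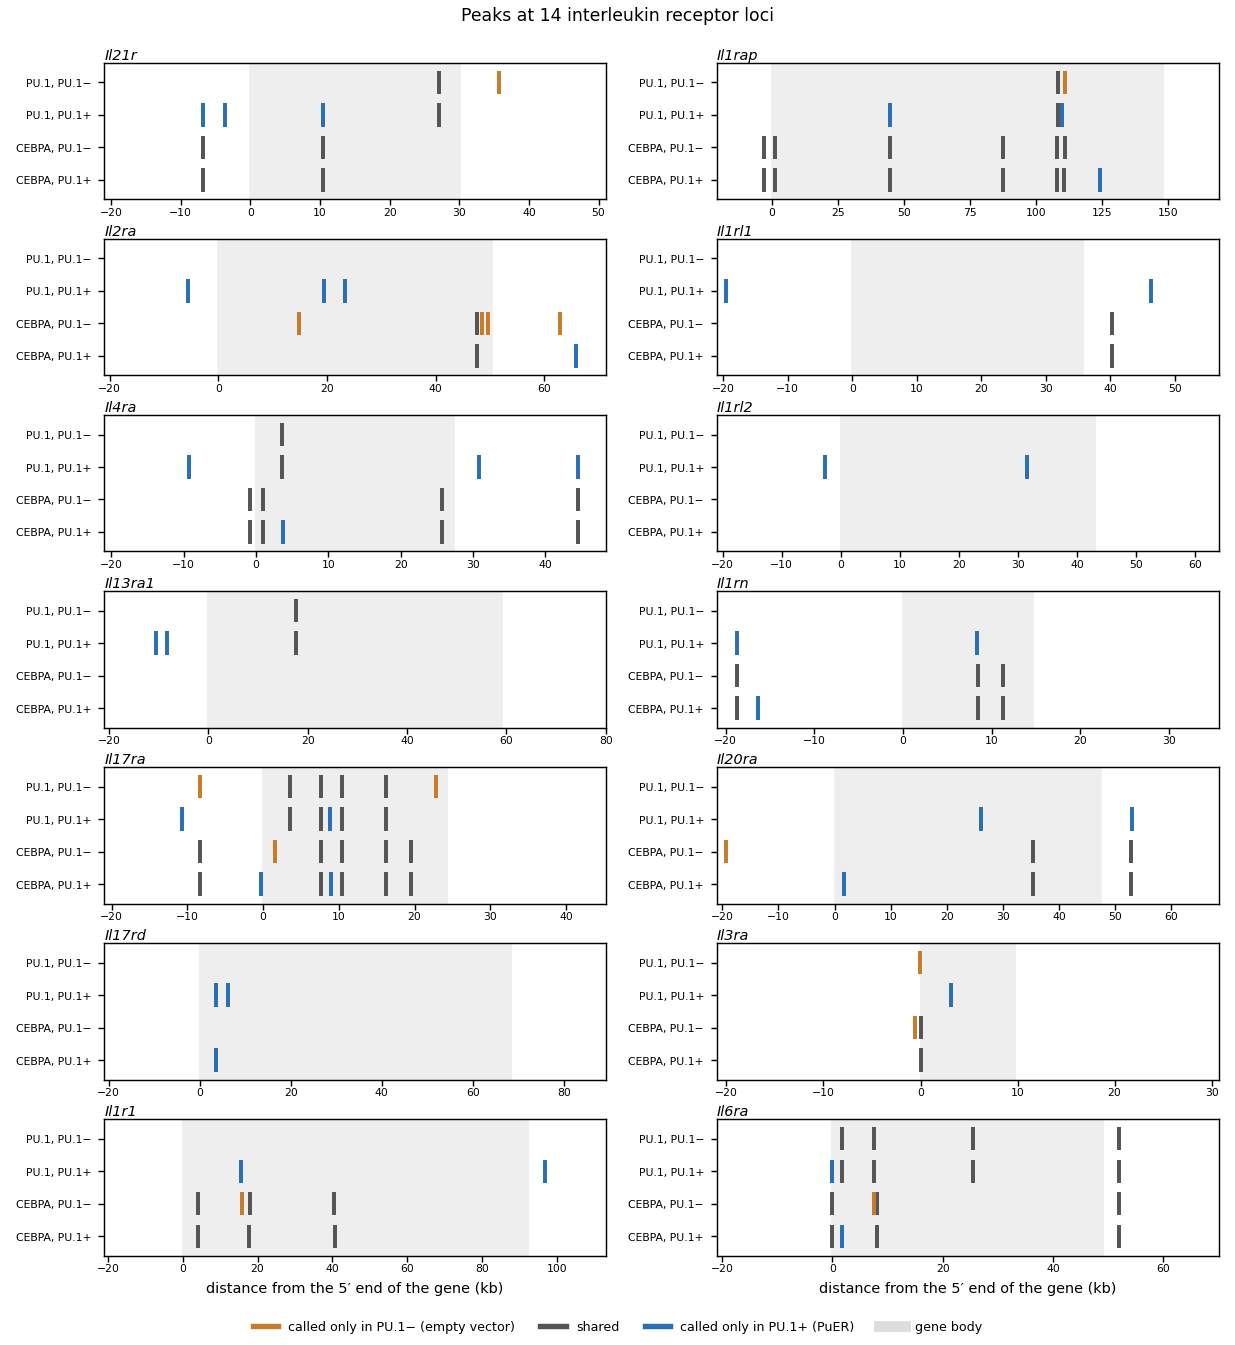
Peak centres at the 14 loci described peak by peak, with the distance from the 5′ end of the gene in kb along the direction of transcription and a track for each antibody and line. *Il2ra*, *Il17rd*, *Il1r1*, *Il1rl1*, *Il1rl2*, *Il1rn* and *Il20ra* have PU.1 peaks in PU.1+ only. *Il17ra* and *Il6ra* have 4 shared PU.1 peaks each, which overlap between the lines by definition of the class.

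CEBPA was listed at 31 of the 41 genes in PU.1− (75.6%, against 56.5% of all genes) and at 30 in PU.1+ (73.2% against 51.3%). At 10 genes (24.4% against 19.2%) CEBPA was listed without PU.1, and at 5 (12.2% against 34.5%) neither factor was. Shared CEBPA peaks were found at 28 genes (68.3% against 48.3%), PU.1−-only ones at 18 (43.9% against 30.1%) and PU.1+-only (new) ones at 12 (29.3% against 11.4%). Among genes of 10 to 100 kb the last share was 31.4%, against 11.9%. Counted once each, 79 CEBPA peaks of PU.1− and 68 of PU.1+ lay here. New peaks were 13 of the 68 (19.1%, 10.6–30.5%), and the interval includes the 11.5% at all genes. Of the 79, 24 (30.4%, 20.5–41.8%) were absent from PU.1+, against 30.3%.

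New CEBPA peaks lay at *Il10rb*, *Il15ra*, *Il17ra*, *Il17rb*, *Il17rd*, *Il1rap*, *Il1rn*, *Il20ra*, *Il22ra2*, *Il2ra*, *Il4ra* and *Il6ra*. *Il17ra* and *Il17rb* had 2 each, and the peak in an intron of *Il15ra* (11708433–11708832) was also counted for *Il2ra*. Of the 13 peaks, 8 (61.5%, 31.6–86.1%) lay in introns, against 49.6% of new CEBPA peaks at all genes. A further 3 (23.1%, 5.04–53.8%) lay at promoters, against 21.4% at all genes, and both intervals include the value of all genes. The promoters were that of *Il17ra* (120462700–120463099) and those of the neighbouring genes *Chdh* (counted for *Il17rb*) and *Ifnar2* (counted for *Il10rb*).

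**Figure D3:**
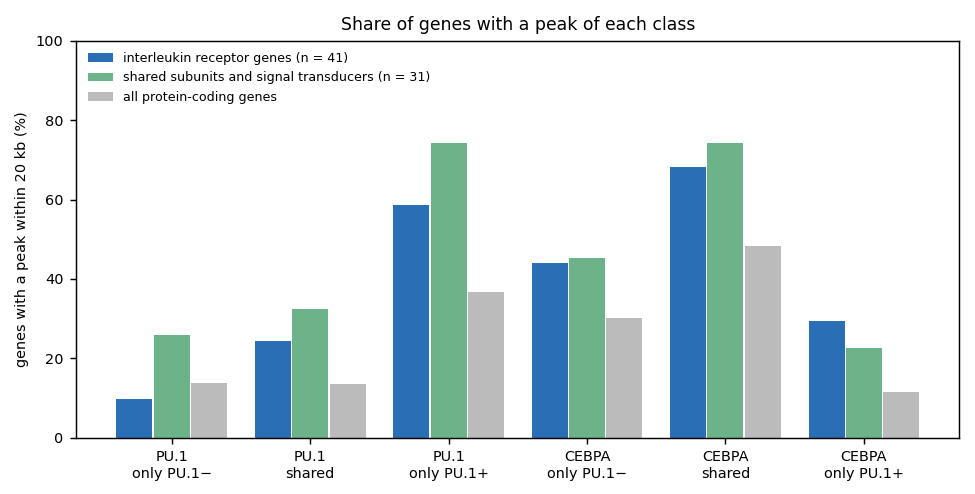
Percentage of genes with a peak of each class within 20 kb, for the 41 interleukin receptor genes, 31 genes for shared subunits and signal transducers and all 21951 protein-coding genes. The interleukin receptor genes stand above all genes in each class except for PU.1−-only PU.1 peaks, for which they stand at 9.76% against 13.7%.

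Overlap between the factors was then counted. A CEBPA peak of PU.1− lay under 8 of the 35 new PU.1 peaks (22.9%, 10.4–40.1%), against 18.2% at all genes, and a CEBPA peak of PU.1+ lay under 9 (25.7%, 12.5–43.3%, against 22.8%). Shared PU.1 peaks overlapped CEBPA peaks of PU.1+ in 10 of 15 cases (66.7%, 38.4–88.2%, against 55.1%). A new PU.1 peak at a CEBPA peak of PU.1− was found at 7 genes (17.1%, against 9.65% of all genes), namely *Il1r1*, *Il1rap*, *Il1rn*, *Il20ra*, *Il21r*, *Il4ra* and *Il6ra*.

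Of the 13 new CEBPA peaks, 2 (15.4%, 1.92–45.4%) overlapped a new PU.1 peak, against 35.4% at all genes, a value inside the interval. They lay at *Il17ra* and *Il17rd*, so that 2 of 41 genes (4.88%, against 4.01% of all genes) gained both factors at a site. A further 2 overlapped shared PU.1 peaks, at *Il4ra* and *Il6ra*, and the other 9 overlapped no PU.1 peak. The windows of the sites that gained both are shown to compare the sequence under each factor. The PU.1 windows held a GGAAGT site, in capitals, and the CEBPA windows held no TTGCNNAA site. The *Il17rd* site begins at the edge of its window, and over the whole peak this 1 GGAAGT site was of the PU.1 type. Over the whole peak, the CEBPA peak at *Il17ra* held 1 TTGCNNAA site and that at *Il17rd* held 0.
*Il17ra*, PU.1, chr6:120472042-120472121, reverse strand: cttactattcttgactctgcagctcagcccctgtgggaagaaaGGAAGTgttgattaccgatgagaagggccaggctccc
*Il17ra*, CEBPA, chr6:120472104-120472183, forward strand: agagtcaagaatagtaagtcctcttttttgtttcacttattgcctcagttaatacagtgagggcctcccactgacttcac
*Il17rd*, PU.1, chr14:27042472-27042551, reverse strand: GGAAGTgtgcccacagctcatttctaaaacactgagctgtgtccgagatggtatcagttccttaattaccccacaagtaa
*Il17rd*, CEBPA, chr14:27042429-27042508, forward strand: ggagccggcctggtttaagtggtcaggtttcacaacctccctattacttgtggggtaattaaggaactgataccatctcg

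Sequence sites under the peaks were compared with those of all peaks of the same class. With few peaks here, an interval that includes the value of all peaks does not show that the shares are alike. An ETS site (GGAAGT, either strand, central 80 bp) was present in 15 of the 35 new PU.1 peaks (42.9%, 26.3–60.6%). The share was 42.9% over all 12714 new PU.1 peaks and 4.48% in windows of the same length 2000 bp to either side of those. Shared PU.1 peaks had a site in 8 of 15 cases (53.3%, 26.6–78.7%, against 46.1% of all shared peaks). The longer PU.1-type site, which contains GGAAGT, was present in 17.1% (6.56–33.6%) of the new peaks against 15.5% of all, and in 0.460% of flanking windows. A CEBP site (TTGCNNAA, N for any base) was found in none of the 35 new PU.1 peaks, which allows a share of up to 10.0%, and 6.33% of all new PU.1 peaks had one. In CEBPA peaks it was present in 26 of 55 shared peaks (47.3%, 33.7–61.2%, against 39.2%), 9 of 24 PU.1−-only peaks (37.5%, 18.8–59.4%, against 28.3%) and 3 of 13 new peaks (23.1%, 5.04–53.8%, against 30.8%). Each of these intervals includes the value of all peaks of its class.

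**Figure D4:**
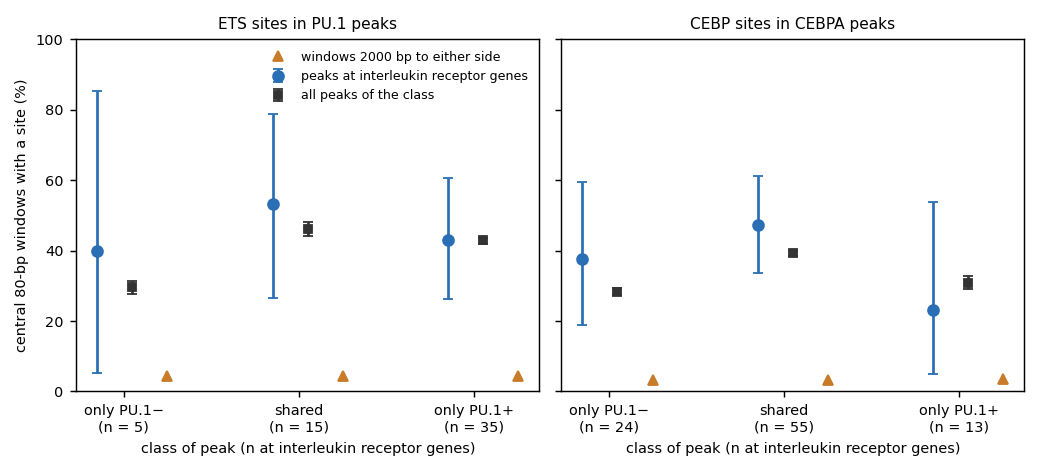
Percentage of central 80-bp windows with an ETS site in PU.1 peaks (left) or a CEBP site in CEBPA peaks (right), by class. Circles are peaks at interleukin receptor genes, squares all peaks of the class and triangles windows 2000 bp to either side, with exact 95% intervals as bars. The intervals of the circles include the squares in all classes.

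Genes for shared subunits and signal transducers whose symbols do not follow the naming rule were counted in the same way. Of these 31 genes, 14 (45.2%, against 23.7% of all genes) had a PU.1 peak in PU.1− and 25 (80.6% against 41.4%) had one in PU.1+. A new PU.1 peak was found at 23 (74.2%, against the 36.7% of all genes), a shared peak at 10 (32.3% against 13.4%) and a PU.1−-only peak at 8 (25.8% against 13.7%). All 5 feedback inhibitors had a new peak, as did 6 of 7 STAT factors, 3 of 4 Janus kinases and 4 of 7 shared subunits. So did 3 of 5 genes of IL-1 receptor signalling, 1 of 2 of its regulation and 1 of 1 of IL-17 receptor signalling. The most new PU.1 peaks were listed at *Irak2*, a kinase of IL-1 receptor signalling (5 peaks), and at the kinase *Jak1*, the transcription factor *Stat5b* and the feedback inhibitor *Socs3* (4 each). *Csf2rb*, *Stat2* and *Irak3* had 3 each. *Csf2rb* encodes the common beta chain that pairs with the products of *Il3ra* and *Il5ra*, and its relative *Csf2rb2* had 2. By contrast, *Il6st*, which encodes gp130, had no PU.1 peak and 1 shared CEBPA peak. A new CEBPA peak at a new PU.1 peak was found at *Irak2*, *Socs3* and *Tyk2*, which are 3 of 31 (9.68%, against 4.01% of all genes). Gene length was not taken into account for this list.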

How the data were processed

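The authors mapped ChIP-Seq reads to mm10 (GRCm38) with Bowtie2 2.0.6 and called peaks with MACS2 2.0.10, per the labels, and the deposited peak files used here hold start and end coordinates only, so that the values here are counts of peaks computed from the deposited intervals. The calling threshold is not given in the sources used here. Of 8 samples listed, 4 were used; the remaining samples (H3K27Ac and IgG) were not analysed here. Within an antibody, a peak was shared where it had 1 bp or more in common with a peak of the other line, which follows the criterion by which the study merged peaks, and shared peaks were counted in PU.1+. Promoters were within 1000 bp of any annotated transcript start of the gene (GENCODE M21), internal starts included, and exons those of any transcript. The place given for a named peak is relative to the named gene, whereas shares by place were scored over all protein-coding genes. Sites were searched on both strands of the central 80 bp, for shared peaks around the PU.1+ centre. The counting steps were tested on simulated peaks and sequences.

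The members and lists were chosen with earlier results of these data known. Loci described peak by peak were the genes with the 8 highest numbers of new PU.1 peaks, ties included, those with a PU.1−-only PU.1 peak or with both factors gained at a site, and *Il13ra1* and *Il6ra*. From the list of shared subunits and transducers, the 5 genes with the most new PU.1 peaks were named, ties included. Other genes and most printed windows were chosen after their values were seen. Python 3.11.15, numpy 2.4.6, scipy 1.17.1, pysam 0.24.0, samtools 1.23.1 and matplotlib 3.10.9 were used.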

Additional observations from a re-analysis of the deposited data

How the results depend on the processing

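Of 155 values recomputed under other settings, 136 stayed within 1.5 times the reported count or within the interval of the reported share. The distance from the gene mattered most. With gene bodies only, new PU.1 peaks were found at 15 genes (18 peaks), PU.1−-only PU.1 peaks at 2 (2 peaks), shared CEBPA peaks at 17 (31 peaks) and PU.1−-only CEBPA peaks at 11 (13 peaks), and new CEBPA peaks numbered 8. Within 50 kb, there were 57 new PU.1 peaks and 10 PU.1−-only PU.1 peaks at 10 genes. With each peak given to the nearest start, 3 PU.1−-only PU.1 peaks remained. No share of all genes is given under these other assignments, so the counts do not show whether differences from all genes hold. Among members of 10 to 100 kb, a setting chosen after seeing the data, 2 of 35 genes had 3 such peaks. That is 5.71% of the genes, against 15.0% of all genes in that range. An ETS site was found in 65.7% of new PU.1 peaks when the whole peak was searched, against 63.5% of all new PU.1 peaks. A GGAA core was found in 94.3% of new and 80% of shared PU.1 peaks. No share of all peaks or of flanking windows is given for this shorter word, so these values do not show enrichment. A CEBP site was found in 53.8% of new CEBPA peaks when the whole peak was searched, against 46.2% of all new CEBPA peaks. Stricter overlap (50% of both peaks, or centres within 100 bp), 10 kb, any overlap with the locus, other promoter widths, the central 200 bp and leaving out *Il1rn*, *Il1rapl1* and *Il1rapl2* moved none of the values beyond those limits. Centring shared peaks on the PU.1− peak, also chosen after seeing the data, gave an ETS site in 46.7% of shared PU.1 peaks and a CEBP site in 50.9% of shared CEBPA peaks. The lists carry no score, so a stricter calling threshold was not tried. No paired analysis was possible because each antibody and line had 1 library.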

Other observations

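RUNX sites (TGCGGT or TGTGGT, either strand, central 80 bp) were present in 6 of the 35 new PU.1 peaks at interleukin receptor genes (17.1%, 95% confidence interval 6.56–33.6%, against 10.2% of all new PU.1 peaks) and in 0 of the 15 shared ones (upper bound 21.8%, against 16.9% of all shared PU.1 peaks) when centred on the PU.1+ peak. Centred on the PU.1− peak, 3 of the 15 shared peaks held a RUNX site, against 17.8% of all shared PU.1 peaks. The 5 PU.1−-only PU.1 peaks had no PU.1-type site (GAGGAAGT) anywhere in the 400 bp, and 4 of them had an ETS1-type site (CAGGAAGT or CCGGAAGT). Over all such peaks in the genome, the whole-peak shares were 5.44% and 22.1%. In the central 80 bp, 0 of the 5 held either type of site (upper bound 52.2% for each). Of all such peaks, 2.76% held a PU.1-type and 11.1% an ETS1-type site there.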
